A study of Mus musculus with 40 samples.

Results

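Atp12a and 4 of its pump relatives (Atp4a, Atp1b1, Atp1b3 and Fxyd2) were followed across a dose series of the dioxin TCDD in mouse kidney. The 5 genes were taken by name from 55359 genes in the files. All 5 passed the filter on low counts, as did 17345 genes in all. They were chosen by measured values in part: Atp12a was selected on its rise at the highest dose, 30 µg/kg, against vehicle, the largest after that of Cyp1a1, and the others as its relatives and subunits. The values of that comparison are therefore given for the 5 genes as a description, with no test. For the 5 genes, the tests below compare doses that entered neither side of it. Other genes are also tested at 10 and 30 µg/kg against vehicle.

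The animals were male C57BL/6 mice, with 5 mice in each of 8 groups. They were gavaged with sesame oil alone (vehicle) or with TCDD in sesame oil at 0.03, 0.1, 0.3, 1, 3, 10 or 30 µg/kg, every 4 days for 28 days, from 30 to 58 days of age. Right kidneys were taken, and bulk RNA sequencing was done on 40 libraries, 1 per mouse. In bulk tissue, fewer cells of a type and less RNA per cell cannot be told apart. The labels name the strain and the agent and no engineered allele. TCDD binds and activates the aryl hydrocarbon receptor, here AhR, whose best known target gene is Cyp1a1.

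P-type pumps move ions across membranes with the energy of ATP, passing through a state in which a conserved aspartate of the catalytic subunit carries a phosphate. The sodium-potassium pump sits on the basolateral side of almost all tubule cells and drives the reabsorption of sodium. It pairs a catalytic alpha subunit with a beta subunit, which it needs to reach the membrane, and its ion affinity is tuned by small FXYD proteins. The proton-potassium pumps secrete acid and take up potassium. The gastric type, encoded by Atp4a, acidifies the stomach, and the non-gastric type, encoded by Atp12a, is known from colon, skin, prostate and the kidney collecting duct.

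The 2 proton-potassium pump genes are relatives in sequence. Over the aligned coding sequence of their GENCODE M21 transcripts, Atp12a and Atp4a were 66.1% identical, and the longest run of bases their transcripts shared was 17. Any 150 aligned coding bases, the length of 1 read, held at least 25 differences between them, so reads of the 2 genes can be told apart by sequence. The beta subunits Atp1b1 and Atp1b3 were 59.2% identical, with a longest shared run of 13 bases.

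Gene counts summed to between 15278423 and 25575317 per library. Levels are given as CPM, the usual scale of counts relative to library size, with TMM scaling factors, as mean ± SD over 5 mice. Replicates are numbered in order of deposition, since the labels give no number. A gene was called when the p-value of edgeR's quasi-likelihood test, adjusted over all genes tested (Benjamini-Hochberg), was under 0.05. The labelled tissue was checked on its markers: 10 proximal tubule genes summed to between 16040 and 19510 CPM in vehicle kidneys, and none of them was at 0. As a check of exposure, Cyp1a1 stood at 2.37 ± 1.25 CPM without TCDD, 1569 ± 147 at 10 µg/kg and 2537 ± 436 at 30 µg/kg.

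Atp12a (ENSMUSG00000022229, chromosome 14), the catalytic subunit of the non-gastric proton-potassium pump, was near the limit of detection in untreated kidneys and climbed steeply from 1 µg/kg up. The 5 vehicle libraries held 0, 0.152, 0.130, 0.921 and 0.397 CPM. At 0.03 µg/kg the values were 0.291, 0, 0.0397, 0 and 0.205 CPM, and at 0.1 µg/kg they were 0, 0.498, 0.113, 0.185 and 0.538 CPM. These 3 groups overlapped throughout, and 4 of their 15 libraries held no Atp12a count at all. A count of 0 allows up to 3 counts, which is 0.129 to 0.195 CPM in those 4 libraries, for counting error alone. At 0.3 µg/kg the values were 0.0619, 0.876, 0.177, 0.494 and 0.412 CPM, still within the vehicle range.

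At 1 µg/kg Atp12a stood at 1.13, 0.348, 2.57, 2.12 and 1.06 CPM. Here 4 of 5 kidneys lay above all vehicle kidneys, and replicate 2 lay inside their range. At 3 µg/kg all 5 kidneys lay above all vehicle kidneys and above all kidneys of the 1 µg/kg group, with 4.11, 4.62, 8.41, 6.23 and 5.14 CPM. At 10 µg/kg the level rose again without overlap, to 19.2, 21.0, 24.1, 13.3 and 18.4 CPM. At 30 µg/kg the values spread from 20.9 to 69.0 CPM: 20.9, 36.1, 69.0, 46.7 and 31.1. The lowest kidney of the 30 µg/kg group fell inside the range of the 10 µg/kg group, and the other 4 were above it.

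**Figure D1:**
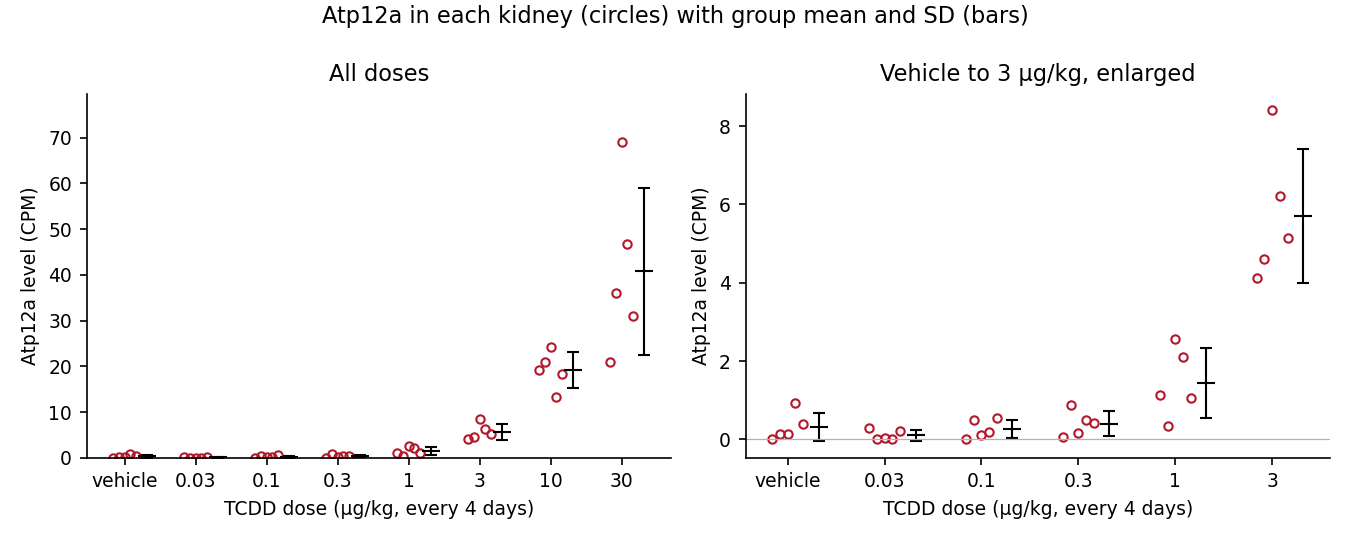
Atp12a level in CPM (vertical axes) by TCDD dose (horizontal axes); each circle is 1 kidney, and the bars beside the circles give the group mean and SD. The left panel shows all doses and the right panel enlarges vehicle to 3 µg/kg. All 5 kidneys at 3 µg/kg lie between 4.11 and 8.41 CPM, above all vehicle kidneys, while the 30 µg/kg kidneys spread from 20.9 to 69.0 CPM.

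From lowest to highest, the group means were 0.107 ± 0.133 CPM (0.03 µg/kg), 0.267 ± 0.239 (0.1), 0.320 ± 0.365 (vehicle), 0.404 ± 0.316 (0.3), 1.45 ± 0.890 (1), 5.70 ± 1.71 (3), 19.2 ± 3.99 (10) and 40.7 ± 18.3 (30). The 4 lowest groups were not separated from each other, and the 3 highest stood 17.8-fold, 60.1-fold and 127-fold above vehicle as ratios of means. Each step from 0.3 to 1, from 1 to 3 and from 3 to 10 µg/kg multiplied the mean by 3.57, 3.95 and 3.37. The last step, from 10 to 30 µg/kg, multiplied it by 2.12.

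The rise was tested between doses that the choice of Atp12a did not use. The trend was fitted without the vehicle and 30 µg/kg libraries. In the contrasts between single doses below, those libraries entered the filter and the estimate of the spread, but not the difference. Over the 30 libraries from 0.03 to 10 µg/kg, the fitted slope of Atp12a averaged 1.63 ± 0.09 (log2, ± SE) per dose step (edgeR adjusted p = 5.01e-15), a trend in which 5.37% of 16913 genes were called higher. At 3 µg/kg against the mean of the 0.03 and 0.1 µg/kg groups, its log2 fold change was 4.99 ± 0.47 (edgeR adjusted p = 8.86e-09), where 1.33% of genes were called higher and 0.0461% lower. At 10 µg/kg against the same 10 libraries, it was 6.75 ± 0.43 (edgeR adjusted p = 2.22e-13), where 4.92% were called higher. Ranked by fold change in that last contrast, Atp12a was the 3rd of 17345 genes, behind Cyp1a1 and Cyp1a2, both classic AhR targets. The fitted fold rests on a reference close to 0 counts and depends on edgeR's prior count of 0.125.

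Between 3 and 10 µg/kg alone, Atp12a rose by 1.76 ± 0.38 on the log2 scale (edgeR adjusted p = 0.0444, with 0.0922% of genes called higher and 0.0173% lower). The 2 groups did not overlap, but the call was at the edge of the threshold. It was lost with DESeq2 (adjusted p = 0.152) and with no filter beyond 1 count (edgeR adjusted p = 0.0691). The call was also lost when any 1 of the 10 libraries was left out (edgeR adjusted p = 0.0611 to 0.179). The log2 fold change stayed between 1.66 and 1.94 in these fits.

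Against vehicle, the lower doses share the libraries that chose the gene, so their values are a description. The log2 fold changes were -1.42 ± 0.98 (0.03 µg/kg), -0.09 ± 0.84 (0.1), 0.53 ± 0.75 (0.3), 2.25 ± 0.63 (1), 4.24 ± 0.55 (3), 5.99 ± 0.53 (10) and 7.08 ± 0.54 (30). The values at 0.1 and 0.3 µg/kg were smaller than their own SE. That at 0.03 µg/kg was larger than its SE, though its kidneys overlapped vehicle. Replicate 4, the vehicle kidney with the most Atp12a, weighed on these folds: without it the value at 1 µg/kg was 3.05.

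The exons of Atp12a share 13.9% of their bases with Gm10873, an antisense gene. The counts used do not separate strands, and the files set reads of an ambiguous gene apart in a line left out here. Gm10873 itself was counted at 0 in all vehicle libraries and reached 0.214 ± 0.162 CPM at 30 µg/kg, beside 40.7 CPM for Atp12a. Of the 3 genes next to Atp12a on either side in RefSeq order, Gzmf, Gzmc, Gzmb and Rnf17 were too low to test, at or under 0.452 CPM on average at 30 µg/kg. Cenpj, a centriole gene, had a log2 fold change of 0.34 ± 0.19 at 10 µg/kg against vehicle (edgeR adjusted p = 0.388). Parp4 rose by 0.30 ± 0.08 (edgeR adjusted p = 0.0115), in a contrast that called 4.82% of genes, where Atp12a stood at 5.99.

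Atp4a (ENSMUSG00000005553, chromosome 7), the catalytic subunit of the gastric proton-potassium pump, moved the other way and by little. Vehicle kidneys held 65.9, 69.1, 55.1, 67.9 and 69.7 CPM. Kidneys at 10 µg/kg held 46.9, 53.2, 50.0, 53.0 and 54.5 CPM, all 5 below every vehicle kidney. At 30 µg/kg the values were 50.8, 50.1, 62.0, 65.3 and 63.6 CPM, of which 2 lay below the vehicle range. The means from vehicle up the doses were 65.6 ± 6.02, 62.5 ± 4.55, 61.6 ± 6.49, 60.9 ± 6.93, 54.8 ± 6.05, 60.9 ± 8.10, 51.5 ± 3.05 and 58.4 ± 7.35 CPM, an order that did not follow dose.

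At 10 µg/kg against the mean of the 0.03 and 0.1 µg/kg groups, Atp4a fell by 0.27 ± 0.08 on the log2 scale (edgeR adjusted p = 0.0296, with 2.12% of genes called lower). That call was lost without 0.03 µg/kg replicate 3 (adjusted p = 0.0568), 0.1 µg/kg replicate 4 (0.0647) or 10 µg/kg replicate 1 (0.117), 2 (0.0567) or 3 (0.0649), and with library size as the only scaling (0.106). Its slope over the doses from 0.03 to 10 µg/kg was -0.04 ± 0.02 from dose to dose (edgeR adjusted p = 0.0571, where 3.36% of genes were called lower). DESeq2 (adjusted p = 0.0477) and limma-voom (adjusted p = 0.0424) called the slope. Without any 1 of 6 libraries (0.03 µg/kg replicate 5, 0.1 replicate 1, 0.3 replicate 1, and 3 replicates 1, 4 and 5) edgeR called it too, at adjusted p = 0.0109 to 0.0492. At 3 µg/kg against the low doses its log2 fold change was -0.03 ± 0.08 (edgeR adjusted p = 0.951). The description against vehicle was -0.35 ± 0.09 at 10 and -0.17 ± 0.09 at 30 µg/kg.

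Atp4a has a beta partner of its own in the stomach, Atp4b, and the kidney libraries held almost none of it. Atp4b averaged 0.0115 ± 0.0258 CPM without TCDD and 0.117 ± 0.175 at 30 µg/kg, too low to test. Of a list of 9 stomach genes that includes Atp4a and Atp4b, 2 passed the filter. Gkn1 and Gkn2 were at 0 counts in all 40 libraries, and 3 of the 9 were at 0 in the vehicle group. The list summed to a median of 68.6 CPM in vehicle, beside a median of 67.9 CPM for Atp4a alone.

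With lengths taken into account, the 2 proton-potassium pump genes came close to each other at the top of the dose range. Per kilobase of exon, Atp12a stood at 0.0796 ± 0.0909 CPM in vehicle against 17.4 ± 1.60 for Atp4a. At 10 µg/kg the per-kilobase levels were 4.78 ± 0.994 and 13.7 ± 0.812 CPM, and at 30 µg/kg 10.1 ± 4.56 and 15.5 ± 1.95 CPM. The Atp12a share of their sum was 0.442 ± 0.492% in vehicle, 2.48 ± 1.61% (1 µg/kg), 8.22 ± 3.16% (3), 25.8 ± 4.57% (10) and 38.1 ± 9.02% (30). In 1 of the 5 kidneys at 30 µg/kg Atp12a was the larger of the pair, at 51.0%.

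**Figure D2:**
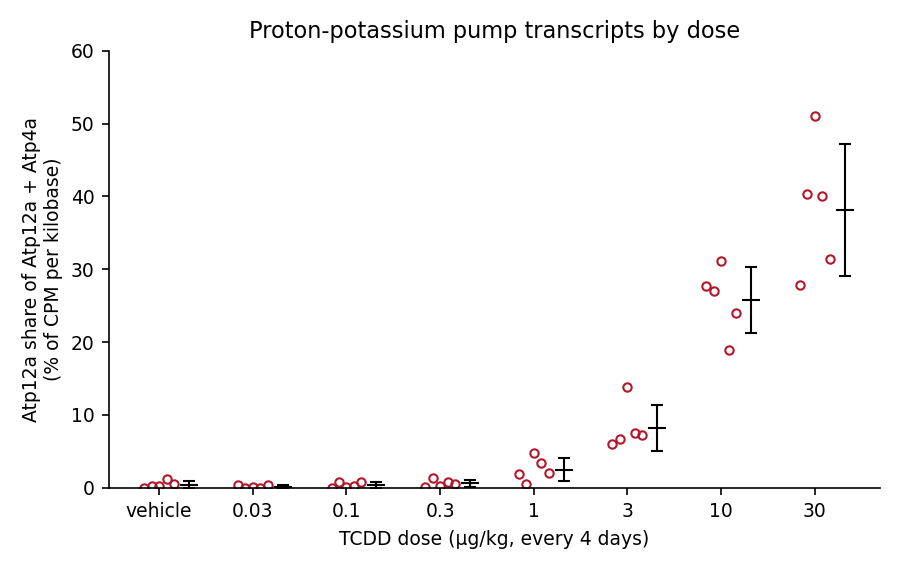
Share of Atp12a in the sum of Atp12a and Atp4a, in percent of CPM per kilobase of exon (vertical axis), by TCDD dose (horizontal axis); circles are kidneys, bars are group mean and SD. The share is 0.442% on average in vehicle and between 27.8% and 51.0% in the 5 kidneys at 30 µg/kg.

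Atp1b1 (ENSMUSG00000026576, chromosome 1), the main beta subunit of the kidney pump, was among the more abundant of the 5 genes. Vehicle kidneys held 1648, 1878, 1762, 1994 and 2034 CPM. The highest levels were in the low-dose groups, with 1899, 1972, 2063, 2001 and 2140 CPM at 0.03 µg/kg and 1822, 2010, 1976, 2133 and 1951 CPM at 0.1 µg/kg. Kidneys at 10 µg/kg held 1569, 1757, 1869, 1470 and 1796 CPM. They overlapped both vehicle and the 0.1 µg/kg group, and all lay below the 0.03 µg/kg group. At 30 µg/kg the values were 1674, 1663, 1751, 1479 and 1740 CPM, with 1 kidney below the vehicle range.

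Over the doses from 0.03 to 10 µg/kg, Atp1b1 fell by 0.05 ± 0.01 per dose step on the log2 scale (edgeR adjusted p = 0.00427). At 10 µg/kg against the 2 low doses it fell by 0.24 ± 0.06 (edgeR adjusted p = 0.0138). The second call was lost without 10 µg/kg replicate 1 (adjusted p = 0.0670) or replicate 4 (0.0924). Against vehicle the differences were smaller, -0.14 ± 0.07 at 10 and -0.17 ± 0.07 at 30 µg/kg. Of the exonic bases of Atp1b1, 18.7% lie opposite Nme7, which averaged 12.8 CPM in vehicle beside 1863 CPM for Atp1b1.

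Atp1b3 (ENSMUSG00000032412, chromosome 9), a second beta subunit that can pair with the sodium-potassium pump, stayed near 100 CPM in 7 of the 8 groups. The means were 104 ± 10.2 CPM (vehicle), 113 ± 5.70 (0.03 µg/kg), 106 ± 5.74 (0.1), 108 ± 4.87 (0.3), 105 ± 3.76 (1), 110 ± 6.82 (3) and 107 ± 5.80 (10). None of the contrasts among these doses called it: the slope was -0.01 ± 0.01 per step (edgeR adjusted p = 0.759) and the difference of 10 µg/kg from the low doses -0.03 ± 0.06 (edgeR adjusted p = 0.885). At 30 µg/kg the kidneys spread, with 105, 110, 73.7, 84.8 and 94.8 CPM, and 2 of them lay below all vehicle kidneys. By length, Atp1b1 made up 92.8 ± 0.621% and Atp1b3 6.70 ± 0.588% of the 5 beta subunits in vehicle, and 92.7 ± 1.07% and 6.74 ± 1.03% at 30 µg/kg. At 10 µg/kg the shares were 91.8 ± 1.11% and 7.55 ± 1.01%, and the groups overlapped for both genes.

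The start region of Atp1b3 is shown because it holds the core letters of the AhR binding motif 4 times. These are the 230 bases from 250 to 21 bases before the start in the RefSeq table (GRCm38.p6, chr9:96364452-96364681, minus strand), with GCGTG in capitals and both strands searched.
Atp1b3: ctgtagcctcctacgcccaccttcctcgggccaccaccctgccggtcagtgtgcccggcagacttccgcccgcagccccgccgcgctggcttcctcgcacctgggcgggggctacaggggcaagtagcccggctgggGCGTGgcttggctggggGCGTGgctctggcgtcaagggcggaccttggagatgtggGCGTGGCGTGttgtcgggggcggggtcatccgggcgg
Among 32851 such windows, 26.1% held at least 1 match and 0.645% held 4 or more. The windows of Atp4a and Atp1b1 held 0, and those of Cyp1a1 and Cyp1b1 held 1 each. A match is a description of letters and not a binding site, and 3 of the 5 genes have a window in the table.

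Fxyd2 (ENSMUSG00000059412, chromosome 9) encodes the gamma subunit, the FXYD protein that modulates the sodium-potassium pump in kidney tubules. Group means were 1963 ± 130 CPM (vehicle), 1982 ± 109 (0.03 µg/kg), 2042 ± 182 (0.1), 2091 ± 265 (0.3), 1922 ± 133 (1), 1946 ± 173 (3) and 1843 ± 166 (10). It was not called over these doses, with a slope of -0.02 ± 0.01 per step (edgeR adjusted p = 0.272) and a difference of -0.13 ± 0.07 between 10 µg/kg and the low doses (edgeR adjusted p = 0.389). At 30 µg/kg the kidneys held 1976, 1743, 1333, 1434 and 1579 CPM. There 4 of 5 lay below all vehicle kidneys, which held 1873, 1963, 2168, 1981 and 1831 CPM. The description of that difference is -0.28 ± 0.09 on the log2 scale. Replicate 3 at 30 µg/kg had the lowest Fxyd2 and the lowest Atp1b3 of all 40 kidneys, and the highest Atp12a.

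**Figure D3:**
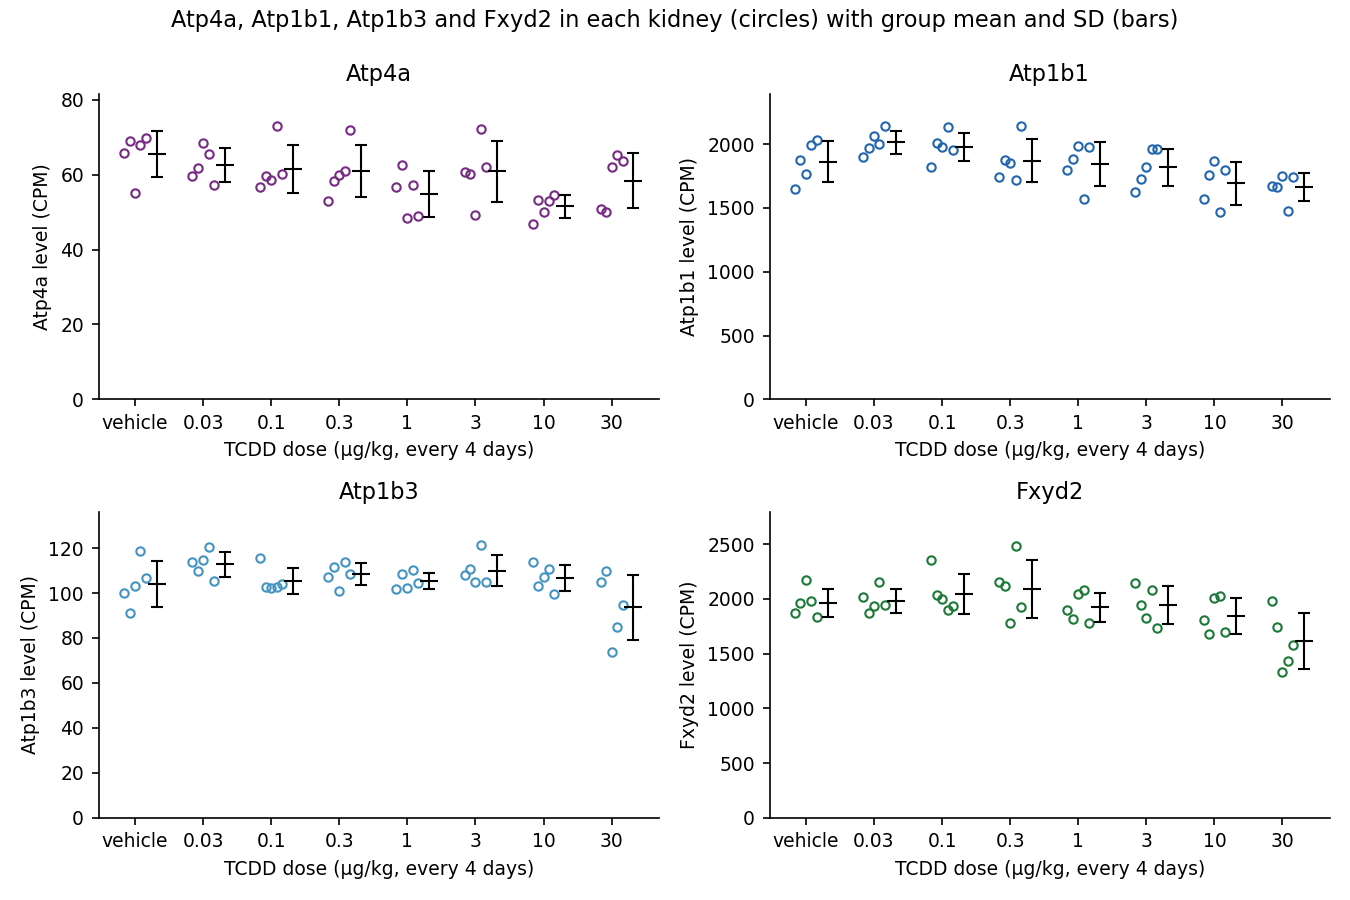
Levels of Atp4a, Atp1b1, Atp1b3 and Fxyd2 in CPM (vertical axes, each from 0) by TCDD dose (horizontal axes); circles are kidneys, bars are group mean and SD. Atp4a is lowest at 10 µg/kg (51.5 CPM on average), and Fxyd2 is lowest at 30 µg/kg (1613 CPM), where its kidneys spread from 1333 to 1976 CPM.

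Taking the 5 genes at 10 µg/kg against the low doses, Atp12a rose, Atp4a and Atp1b1 fell, and Atp1b3 and Fxyd2 were not called. Further pump genes came from lists of beta subunits, FXYD regulators and NKAIN proteins, which bind the pump. Of the 13 genes on them besides the 5, 8 could be tested. In this contrast 4.92% of all genes were called higher and 2.12% lower, and 1 of the 8 was called. That was Fxyd5, a FXYD protein also known as dysadherin that is tied to cell adhesion, with 7.40 ± 1.17 CPM (vehicle), 12.2 ± 2.14 (10 µg/kg) and 13.4 ± 1.11 (30). Its log2 fold change was 0.75 ± 0.12 at 10 µg/kg against the low doses (edgeR adjusted p = 8.47e-06), and all 5 kidneys at 10 µg/kg lay above all vehicle kidneys. At the top dose against vehicle, where 8.39% of all genes were called higher and 7.55% lower, Fxyd5 rose by 0.86 ± 0.14 (edgeR adjusted p = 1.58e-05) and Fxyd6 by 0.71 ± 0.21 (edgeR adjusted p = 0.0137).

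The remaining tested genes of these lists were not called at 10 µg/kg against the low doses. The log2 fold changes were 0.01 ± 0.13 for Atp1b2, -0.05 ± 0.24 for Fxyd1, 0.37 ± 0.66 for Fxyd3, -0.01 ± 0.15 for Fxyd4 of principal cells, 0.28 ± 0.18 for Fxyd6, 0.39 ± 0.19 for Nkain1 and -0.18 ± 0.57 for Nkain4. Exons of Fxyd3 overlap those of Lgi4 on the other strand, so its counts are uncertain.

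**Figure D4:**
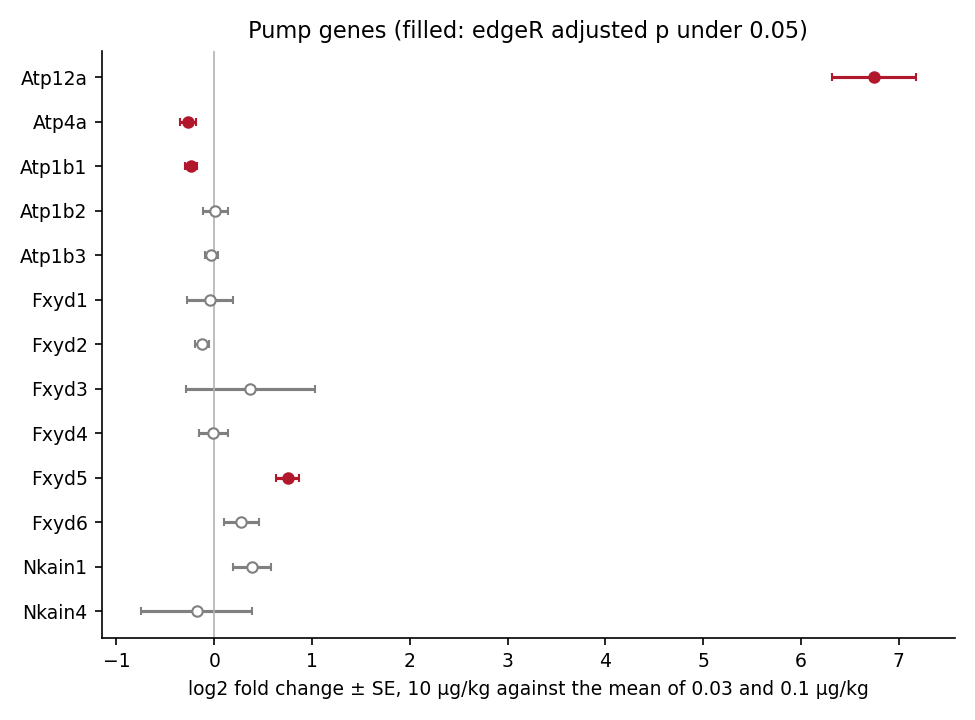
Log2 fold change ± SE (horizontal axis) of the 13 tested genes of these lists and of the proton-potassium pumps (vertical axis) at 10 µg/kg against the mean of the 0.03 and 0.1 µg/kg groups; filled points passed edgeR's adjusted p under 0.05. Atp12a stands at 6.75, Fxyd5 at 0.75, and Atp4a (-0.27) and Atp1b1 (-0.24) lie just below 0.

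In the other lists of ion transport genes, all calls at 10 µg/kg against the low doses were falls, the largest by 0.43 on the log2 scale. Over all genes, 2.12% were called lower and 4.92% higher in that contrast. The P-type ATPases outside the 2 pump types (among them calcium, copper and lipid pumps) numbered 28 tested genes. Their median difference in that contrast was 0.06, beside 0.00 over all genes. Over the trend, 1 of the 28 was called, the lipid flippase Atp8a2, which rose by 0.20 ± 0.07 per dose step (edgeR adjusted p = 0.0462), beside 5.37% of all genes called higher. Of 24 tested subunits of the V-type proton pump, which acidifies urine and organelles, 3 were called at 10 µg/kg against the low doses, all lower, with a list median of -0.10. The largest of these was Atp6v1b1, the subunit of intercalated cells, which fell by 0.38 ± 0.06 (edgeR adjusted p = 6.99e-06).

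Of 15 tested potassium channels and transporters of the tubule, 4 were called in that contrast, all lower, beside 2.12% of all genes. Their list median was -0.04. Kcnk5, a background channel of the proximal tubule, fell most, by 0.43 ± 0.12 (edgeR adjusted p = 0.0166). Of 14 genes of the mineralocorticoid pathway and the sodium channel it controls, 1 fell, the channel subunit Scnn1b, by 0.21 ± 0.07 (edgeR adjusted p = 0.0364), with a list median of -0.12. Over the trend 3 of the 14 fell, all of them channel subunits, beside 3.36% of all genes called lower. Scnn1b fell by 0.05 ± 0.01 per step (edgeR adjusted p = 0.00853). Of 8 AhR targets, 7 rose at 10 µg/kg against the low doses, beside 4.92% of all genes, with a median of 2.03.

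In the contrast of 30 µg/kg with vehicle, where 8.39% of all genes rose and 7.55% fell, 5 of 24 V-type subunits fell and 1, Atp6v0a4, rose by 0.25 ± 0.09 (edgeR adjusted p = 0.0479). The V-type fall was largest for Atp6v1c2, at 0.42 ± 0.10 (edgeR adjusted p = 0.00195). Of the 15 tested potassium genes 3 rose and 4 fell. Kcnma1, the large-conductance potassium channel, rose by 1.72 ± 0.36 (edgeR adjusted p = 0.000565), and Kcnk5 fell by 1.04 ± 0.13 (edgeR adjusted p = 7.99e-07). Of the 14 mineralocorticoid and sodium channel genes 2 rose and 4 fell. Sgk1, the aldosterone-induced kinase, rose by 0.87 ± 0.30 (edgeR adjusted p = 0.0398), and Hsd11b2, which shields the mineralocorticoid receptor from glucocorticoids, fell by 0.34 ± 0.08 (edgeR adjusted p = 0.00221). Of the 28 other P-type ATPases 2 fell, a share near that of all genes, and Atp11a, a lipid flippase, fell most, by 1.14 ± 0.25 (edgeR adjusted p = 0.00112).

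Markers of several cell types moved with Atp12a. The 9 urothelium markers summed to 71.8 ± 14.8 CPM in vehicle (52.9 to 89.3), 90.4 ± 15.9 at 10 µg/kg (67.9 to 111) and 133 ± 32.9 at 30 µg/kg (110 to 190), and none of them was at 0 in any group. Of the 9, 4 uroplakins were called higher at 10 µg/kg against the low doses, led by Upk2, which rose by 1.45 ± 0.25 on the log2 scale (edgeR adjusted p = 6.74e-05), and Krt5, Trp63, Krt15, Psca and Upk3b were not called. The median over the 9 was 0.63, and 4.92% of all genes were called higher in that contrast. Per 100 CPM of these markers Atp12a stood at 0.500 ± 0.569 in vehicle, 22.4 ± 8.51 (10 µg/kg) and 31.7 ± 15.6 (30). With the mean of the markers as a covariate, the log2 fold change of Atp12a at 10 µg/kg against the low doses was 7.25 (edgeR adjusted p = 9.27e-11). Within the 30 µg/kg group the summed markers were highest in replicate 2 (190 CPM) and Atp12a in replicate 3 (69.0 CPM).

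With the same covariate, Atp1b1 lost both of its calls. Its difference between 10 µg/kg and the low doses was then -0.18 (edgeR adjusted p = 0.267) and its slope -0.04 (edgeR adjusted p = 0.178). Between 10 µg/kg and the low doses Atp4a also lost its call (edgeR adjusted p = 0.0576). Its fall there was larger with the covariate (-0.33 ± 0.10) than without it (-0.27 ± 0.08). The part of these markers in the 2 falls beyond that fit was not tested.

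Atp12a and Atp4a are best known within the kidney from the collecting duct. Of 12 intercalated cell markers, 5 were called at 10 µg/kg against the low doses, all lower, beside 2.12% of all genes called lower. The largest fall was that of the anion exchanger Slc4a1, by 0.67 ± 0.14 (edgeR adjusted p = 0.00193). The summed list had medians of 812 CPM in vehicle, 685 at 10 and 783 at 30 µg/kg. Of 9 tested principal cell markers, 2 were called, both lower, led by the water channel Aqp3, which fell by 0.37 ± 0.07 (edgeR adjusted p = 0.000392), and the summed medians were 1252, 1073 and 1145 CPM. At 30 µg/kg against vehicle, 5 of 12 intercalated and 4 of 9 principal cell markers fell, beside 7.55% of all genes. Aqp6 and Slc4a9 of the first list and Gata3 of the second rose, beside 8.39% of all genes. At 10 µg/kg against the low doses, the 5 endothelium markers all rose, beside 4.92% of all genes called higher. Emcn led with 0.82 ± 0.06 (edgeR adjusted p = 2.22e-13), and the part of the endothelium markers in the pump values was not tested. Of 7 prostate and seminal vesicle genes, Pbsn, Svs2, Svs4 and Svs5 were at 0 counts in all 40 libraries, while the list summed to between 231 and 348 CPM in vehicle, led by Spink1, which fell by 0.49 ± 0.14 on the log2 scale at 30 µg/kg against vehicle (edgeR adjusted p = 0.011).

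Markers of other tubule segments and of fat also differed between doses. The 6 distal convoluted tubule markers summed to between 2293 and 3151 CPM in vehicle and between 1832 and 2192 CPM at 10 µg/kg, all 5 kidneys below vehicle. Of these, 3 fell at 10 µg/kg against the low doses, beside 2.12% of all genes. Pvalb fell most, by 0.84 ± 0.19 (edgeR adjusted p = 0.00389). The proximal tubule sum had medians of 16480 CPM in vehicle, 14700 at 10 and 14550 at 30 µg/kg (10420 to 17210). Of its 10 markers, 5 fell and 1 rose at 30 µg/kg against vehicle, beside 7.55% and 8.39% of all genes. The 5 fat markers summed to medians of 50.4 CPM in vehicle, 116 at 10 and 215 at 30 µg/kg, with Ucp1 as the most abundant. In the 0.03 µg/kg group, 1 kidney held 798 CPM of adrenal cortex markers, beside a group median of 5.43 CPM. The highest kidney held 831 CPM of them in the 1 µg/kg group (median 4.86) and 43.9 CPM in the 3 µg/kg group (median 5.29). The part of these markers in the values of Atp4a, Atp1b1 and Fxyd2 was not tested.

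**Figure D5:**
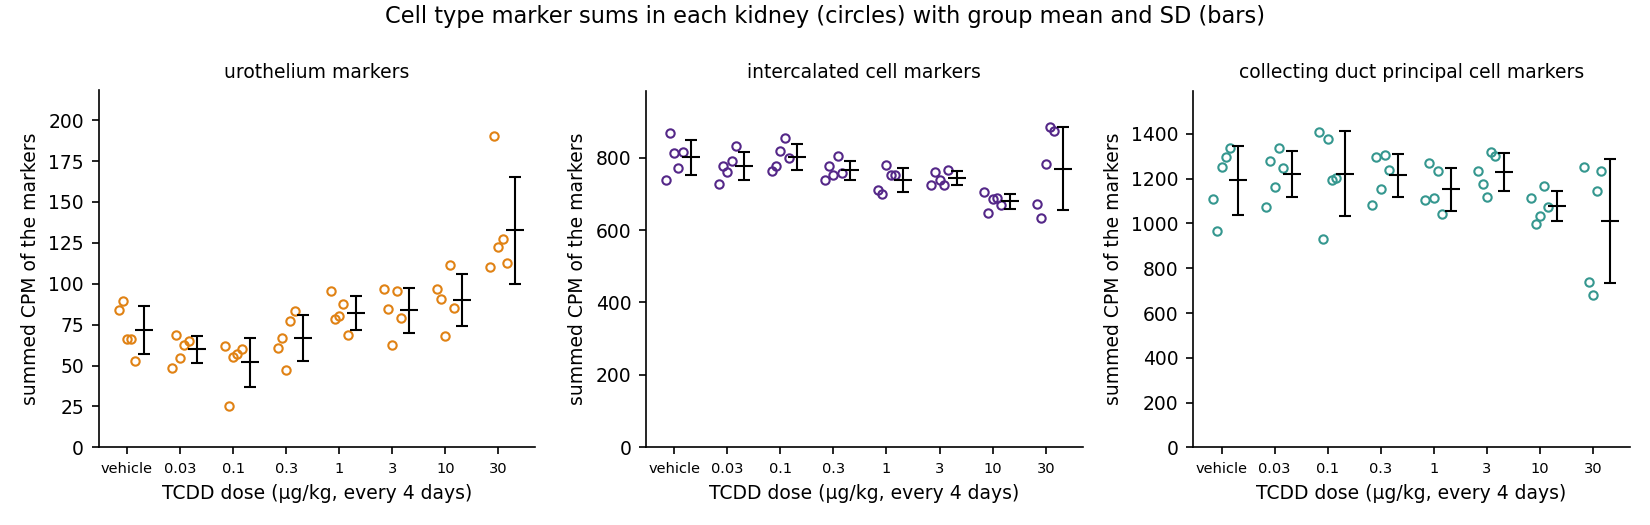
Summed CPM (vertical axes, from 0) of the urothelium, intercalated cell and collecting duct principal cell markers by TCDD dose (horizontal axes); circles are kidneys, bars are group mean and SD. The urothelium sum is above all vehicle kidneys in all 5 kidneys at 30 µg/kg (110 to 190 CPM), and the intercalated cell sum has its lowest group median at 10 µg/kg (685 CPM).

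Likeness was measured as Pearson's r over log2 CPM of the 40 libraries, which share dose as their main difference. The genes most like Atp12a were Cyp1b1 (r = 0.936), Cyp1a1 (0.929), Peg3 (0.899), Emcn (0.899) and Nfe2l2 (0.899), chosen as the highest and so given with no test. Cyp1b1, an AhR target, held 23.1 ± 2.29 CPM with vehicle alone, 134 ± 18.5 at 10 and 188 ± 13.4 at 30 µg/kg. Its relatives ran the other way, with r of -0.386 for Atp4a, -0.535 for Atp1b1, -0.351 for Atp1b3 and -0.558 for Fxyd2. Once each group's mean was taken out, r between Atp12a and Cyp1a1 was -0.104. High values then included 0.658 for Tlx2, a gene near 0 counts, 0.595 for Cwf19l1, 0.576 for Nfs1 and 0.571 for Ubap2.

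Per 100 CPM of Cyp1a1, Atp12a stood at 1.48 ± 0.972 (1 µg/kg), 1.99 ± 0.721 (3), 1.24 ± 0.281 (10) and 1.70 ± 0.986 (30). The ratio was higher on average in the groups with few Atp12a counts. There it was 12.4 ± 12.0 (vehicle), 6.51 ± 7.96 (0.03 µg/kg), 5.25 ± 4.57 (0.1) and 2.13 ± 2.43 (0.3). The ranges of neighbouring doses overlap, that of 3 µg/kg (1.45 to 3.23) and that of 10 µg/kg (0.807 to 1.47) only at their ends. The differences between doses were not tested.

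The other 4 genes resembled different genes. Atp4a was most like Trpc4ap (r = 0.615), Fetub (0.590) and Abca13 (0.586). Atp1b1 was most like Egf (0.801), the growth factor of the distal convoluted tubule and thick limb, Rbm47 (0.785) and Ubqln1 (0.770). Atp1b3 was most like Kap (0.828), the androgen-regulated protein of the proximal tubule, Guca2b (0.811) and Reep5 (0.801), and Kap itself averaged 15260 ± 5599 CPM with vehicle alone and 6488 ± 5510 at 30 µg/kg. Fxyd2 was most like Uqcr10 (0.935), Cox6b1 (0.928) and Ndufa4 (0.926), which encode parts of the mitochondrial respiratory chain.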

How the data were processed

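Each of the 40 kidney libraries has 1 file deposited by the authors, which holds read counts as whole numbers in an unstranded and 2 stranded columns. The submitters' processing notes name FastQC 0.11.7, Trimmomatic 0.39, STAR 2.7.3a, DESeq2 and the builds GRCm39 and mm10, with no role for each. A deposited table of log-scale values for the whole series was not used here. The stranded columns held nearly equal shares (50.35 to 51.04%), so the unstranded counts were used and reads of overlapping genes on opposite strands are not told apart. Summary lines were dropped. Per library they held 1.41 to 2.66% unmapped reads, 6.98 to 9.7% multimapping reads, 5.28 to 7.27% outside features and 5.4 to 5.98% with an ambiguous gene. Names, exon lengths and transcripts came from GENCODE M21, which named 52083 of the 55359 identifiers; chromosomes are given without coordinates for the genes because the build of the counts is not given in the sources used here.

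Groups and doses came from the labels. Replicates of a group differed beyond sampling noise (chi-square per degree of freedom 6.90 to 78.8 over 80 pairs), and each library was 1 replicate. Counts were filtered with filterByExpr, scaled with TMM (factors 0.966 to 1.09) and fitted with edgeR 4.0.16 in R 4.3.3 by the quasi-likelihood test over 8 groups of 5, with fold changes at a prior count of 0.125 and an average biological variation of 17.1%. The trend was a slope over the dose rank in the 30 libraries from 0.03 to 10 µg/kg. Likeness used log2 CPM at a prior count of 2. The fit was tested on simulated data. Alternatives used DESeq2 1.42.0, limma 3.58.1, other scalings, filters and covariates, and each replicate left out.

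The 5 genes and all lists were chosen with earlier results of these data known. Named were the 5 genes, the tested pump genes, the called gene with the largest rise and fall of each other list per contrast described, and the genes most like each of the 5 (5 for Atp12a, both over all libraries and within groups, and 3 for the others). Some genes that the rule takes in are not reported here. Genes beyond this rule (the neighbours of Atp12a, single markers, Atp4b and Gm10873) were chosen after their values were seen. Reads carry no molecular identifiers, so the limit that 0 counts allow covers counting error only.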

Additional observations from a re-analysis of the deposited data

Results flagged for a closer look

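Within groups of 5 kidneys, 3 values stood farther from their group than Dixon's test allows (critical ratio 0.71). Vehicle replicate 3 held 55.1 CPM of Atp4a, with the next kidney at 65.9 CPM. At 0.1 µg/kg, replicate 4 held 73.0 CPM of Atp4a, with the next at 60.1 CPM. At 0.1 µg/kg, replicate 1 held 116 CPM of Atp1b3, with the next at 104 CPM. Over the 40 groups examined (5 genes in 8 dose groups), chance alone sets about 2 values apart.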

How the results depend on the processing

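No paired analysis was possible because the labels give no replicate numbers. Of 1372 values of the 5 genes under other settings, 30 were counted as losing a call, 9 as gaining one and 1333 as unchanged. The values at 30 µg/kg against vehicle, a description, were not judged by the threshold in this count. A change of sign was counted as a reversal only where a call was involved, which was so for 0 values. The rises of Atp12a at 3 and 10 µg/kg against the low doses and over the trend kept their call under all settings run. Without the 2 libraries at 10 µg/kg whose file names carry an R, calls were lost for Atp12a at 10 against 3 µg/kg (adjusted p = 0.131), and at 10 µg/kg against the low doses for Atp4a (0.113) and Atp1b1 (0.0799).

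At 0.03 µg/kg against vehicle 0 genes were called by edgeR (983 at an unadjusted p under 0.05), 7 by DESeq2 and 1 with the principal cell marker covariate. At 0.1 µg/kg 0 were called (960 unadjusted), and at 0.3 µg/kg 1 was, or 3 by DESeq2. With the principal cell covariate the counts were 176 at 1 (89 as reported), 387 at 3 (189) and 1277 at 10 µg/kg (836). Fitting only the groups compared gave 113 at 3 and 969 at 30 µg/kg (2766). For 10 against 3 µg/kg (19 as reported) the counts were 65 with DESeq2, 47 with limma-voom, 12 with 1 stranded column, 149 with only the groups compared, 29 with the principal cell covariate and 57 with a medulla against cortex covariate. The urothelium covariate, added after seeing the data, gave 1836 at 30 µg/kg, 119 for 3 (239) and 570 for 10 µg/kg (1221) against the low doses, and 570 for the trend (1477). The cause of these shifts was not tested.

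With each library left out in turn, counts ran from 0 to 1 at 0.03, 0 to 0 at 0.1, 1 to 1 at 0.3, 64 to 105 at 1, 119 to 199 at 3, 578 to 893 at 10 and 2014 to 3275 at 30 µg/kg against vehicle. They ran from 141 to 302 for 3 and from 784 to 1225 for 10 µg/kg against the low doses, from 3 to 23 for 10 against 3, and from 1087 to 1668 for the trend. The lowest came without 3 µg/kg replicate 5 (119 and 141) and without 10 µg/kg replicate 2 (784 and 3), and the 1 call at 0.03 µg/kg came without vehicle replicate 3. For 10 against 3 µg/kg the count was also 5, 8 and 6 without 3 µg/kg replicates 1, 2 and 3, and 11 and 5 without 10 µg/kg replicates 4 and 5. Depth limits Atp12a below 1 µg/kg, where a few counts decide a fold.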
